A study of Mus musculus with 6 samples.

Results

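The enzymes of glycolysis and of the pentose phosphate pathway, with the carriers and the pyruvate-handling enzymes at their ends, were compared between wild type and Hdac3 deleted samples labelled as mouse regulatory T cells; markers of other cell types in the deleted samples are given below. Members came from a list of 35 gene symbols. A gene was measured where a probe set carried that symbol alone in the platform annotation, and where a gene had several, the one brightest on average across the 6 samples stood for it. By this rule 31 of the 35 were found. Gapdh was found only through Affymetrix control probe sets, which stayed outside the fit, so 30 members were tested among the 12393 genes fitted. Hk3, Gpi1, Eno1 and G6pdx had no probe set of that kind and are not analysed here.

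Glycolysis takes glucose in through facilitative transporters, traps it by phosphorylation and splits it into pyruvate, with a net gain of ATP. Pyruvate is either reduced to lactate, which leaves the cell with a proton, or oxidised in mitochondria by the pyruvate dehydrogenase complex. The pentose phosphate pathway branches off at glucose 6-phosphate and yields NADPH and ribose for nucleotides. Effector T cells, activated macrophages and dividing cells are known for high glycolytic flux, while resting regulatory T cells are known to depend more on oxidative metabolism. Many steps have isozymes encoded by separate genes with different tissue distributions and affinities.

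The samples were total RNA of CD4+CD25+ cells, labelled as regulatory T cells, from mice of C57BL6 background. The labels give no age. The wild type group (n = 3) carried no named allele. The Hdac3 deleted group (n = 3) carried HDAC3-fl/fl_FOXP3cre, a floxed gene for a histone deacetylase and a Cre recombinase named for Foxp3, so that deletion is limited to cells that have expressed this Cre. The source field of the deleted samples names HDAC11 in place of HDAC3. Separate mice are not named as the origin of the replicates, so p-values rest on a spread between samples that may be technical. Values are log2 signals after robust multiarray averaging (RMA), and differences are given as the deleted mean minus the wild type mean. The 27 Bacillus subtilis control probe sets, which have no target in mouse RNA, spanned 2.37 to 5.16, and a mean inside that range is called background. Levels of different probe sets are not compared with each other.

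The groups stood far apart in more than metabolism. Probe set correlations were 0.996 or higher within a group and at most 0.923 between groups. Hdac3 fell by 0.55 (adjusted p = 7.45e-05). Foxp3 was at background in both groups, at 3.77 and 3.68. Of the genes for the markers in the sample labels, Cd4 fell by 1.02 (limma, adjusted p = 6.73e-06). Il2ra, which encodes CD25, went the other way and rose by 0.71 (limma, adjusted p = 2.67e-05). The 4 CD3 genes of T cells fell, with a mean of 12.22 in wild type and 10.75 in deleted samples, a difference of -1.47, and their summed linear signal went from 21200 to 22700 down to 8350 to 8490. All 21 measured macrophage and monocyte markers rose, with summed signals of 7510 to 7840 and 130000 to 134000, and 11 of them were at background in wild type but none in deleted samples. All 13 neutrophil markers rose, from summed signals of 373 to 505 to 38500 to 39100. Csf1r, a receptor gene among the macrophage and monocyte markers, went from 6.66 to 14.2. Of 19 cell cycle genes 17 rose and 1 fell, with summed signals of 8000 to 8200 and 13500 to 13900. Tyms, counted among these rises, lay at background in both groups. Across all genes 22.4% rose and 38.8% fell. Of 8 B cell markers 3 rose and 1 fell, beside these shares. Blk, which fell, and Fcer2a, which rose, lay at background in both groups, as did Cr2, Ms4a1 and Pax5. The readable B cell calls were rises of Cd22 (2.45) and Cd79b (1.01). Of 7 erythroid markers 4 rose, with Ermap, Hba-a1 and Klf1 at background in both groups. These markers move with every difference below, all 3 deleted samples carry them, and their part in the results was not tested. In pooled RNA, fewer cells of a type and less RNA per cell cannot be told apart.

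Most of the tested members, a list chosen with earlier results of these data known, were higher in the deleted samples. Of 76 other measured genes of neighbouring steps, described below, 24 rose and 21 fell. Of the 30 members tested, 21 rose, 6 fell and 3 did not pass (limma, adjusted p under 0.05 over all genes). Across all 12393 genes 22.4% rose and 38.8% fell, against 21 of 30 (70.0%) and 6 of 30 members. The median member difference was 0.65, beside -0.17 over all genes. At the authors' threshold, which adds a 2-fold difference, 5 members rose (Hk2, Tpi1, Slc16a3, Pgd and Pgam1) and 1 fell (Ldhb), beside 9.04% and 4.46% of all genes. The groups did not overlap in 28 of the 30 members, and did not overlap in 67.4% of all genes. Fbp1, 1 of the 21 that rose, lay at background in both groups, which leaves 20 readable rises among 28 readable members. The shares and the median over all genes include genes at background in both groups. Shares among genes above background were not determined, so the 20 of 28 has no like value beside it. Under cyclic loess, 22 members rose and 12 of them passed 2-fold.

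**Figure D1:**
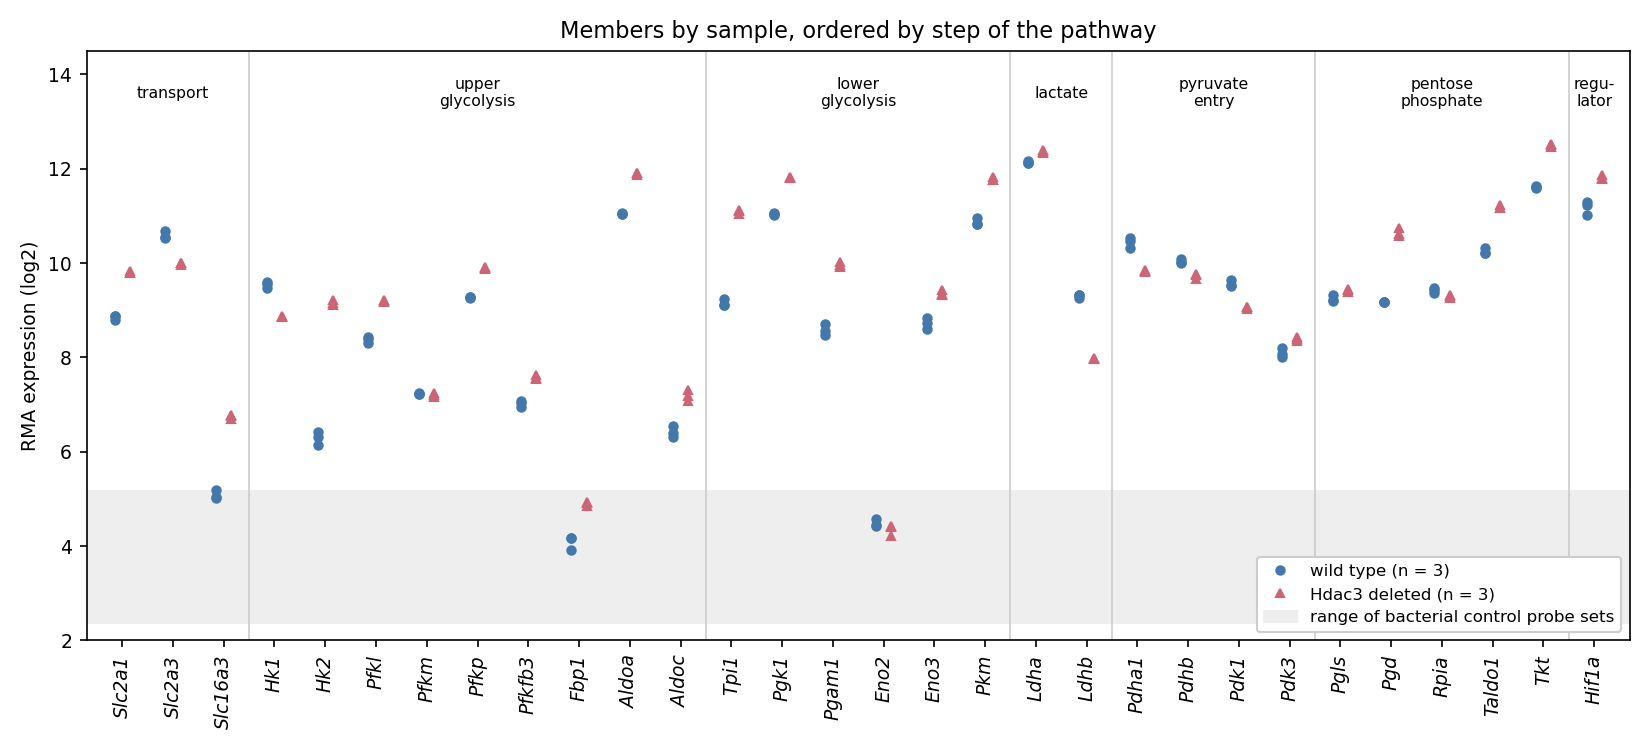
RMA expression (log2) of the 30 tested members in each sample, in the order of the pathway, with circles for the 3 wild type and triangles for the 3 Hdac3 deleted samples; the grey band is the range of bacterial controls, 2.37 to 5.16. Replicates lie close together, with a median within-group SD of 0.048, and Fbp1 and Eno2 lie inside the band in both groups.

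The 2 glucose transporters moved in opposite directions. Slc2a1 encodes GLUT1, the transporter induced in growing and activated cells, and measured 8.88, 8.87 and 8.80 in wild type samples and 9.79, 9.83 and 9.78 in deleted samples. Every deleted sample lay above every wild type one, and Slc2a1 rose by 0.95 (SE 0.053, adjusted p = 6.45e-06), 1.93-fold. Its other 2 probe sets rose by 1.04 and 0.80. Slc2a3 encodes GLUT3, a high-affinity transporter of neurons and leukocytes, and measured 10.56, 10.52 and 10.68 in wild type against 10.01, 10.01 and 9.95. Here all deleted samples were the lower ones, and Slc2a3 fell by 0.60 (SE 0.062, adjusted p = 0.000138). A second Slc2a3 probe set also fell by 0.60, while 2 others lay at background in both groups. With probe sets of the _s, _x and _a kinds left out, only a background probe set of Slc2a3 remained and no call was made (-0.23, adjusted p = 0.239).

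Slc16a3, which encodes the lactate exporter MCT4, came up from background. It measured 5.01, 5.18 and 5.04 in wild type samples and 6.78, 6.69 and 6.75 in deleted samples. Since the wild type mean lay inside the range of the bacterial controls, the rise is given from the top of that range as at least 2.99-fold (adjusted p = 1.13e-06).

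Hexokinase, the enzyme that commits glucose to the cell, showed the widest split. Hk2, the inducible isozyme of muscle, fat and activated leukocytes, measured 6.31, 6.41 and 6.14 in wild type samples and 9.21, 9.15 and 9.11 in deleted samples. Every deleted sample lay far above every wild type one, and Hk2 rose by 2.87 (SE 0.080, adjusted p = 2.21e-07), 7.31-fold. Hk1, the constitutive isozyme, measured 9.60, 9.56 and 9.48 in wild type samples and 8.85, 8.88 and 8.85 in deleted samples. It fell by 0.69 (SE 0.055, adjusted p = 3.78e-05), and its second probe set fell as well (adjusted p = 0.000359). The change of Hk2 exceeded that of Hk1 by 3.56 (SE 0.065), an 11.8-fold shift of the ratio within each array, which a constant shift of an array cannot alter.

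For isozymes that diverged, the start regions are shown to let the reader compare what lies before each gene. They are RefSeq promoter windows (GRCm38.p6) from 250 bases before to 50 after an annotated start, written in the direction of the gene. Capitals mark ACGTG and GCGTG, the core of the hypoxia response element, and the E-box CACGTG, which contains ACGTG on both strands; each was searched on both strands, so reverse matches read CACGT and CACGC. Hk2 has 1 window, at chr6:82774405-82774704 on the minus strand, with 2 ACGTG matches. Hk1 has 2 windows on the minus strand of chromosome 10, an upstream one at chr10:62379859-62380158 with no match and one at chr10:62340372-62340671 with 5.
Hk2: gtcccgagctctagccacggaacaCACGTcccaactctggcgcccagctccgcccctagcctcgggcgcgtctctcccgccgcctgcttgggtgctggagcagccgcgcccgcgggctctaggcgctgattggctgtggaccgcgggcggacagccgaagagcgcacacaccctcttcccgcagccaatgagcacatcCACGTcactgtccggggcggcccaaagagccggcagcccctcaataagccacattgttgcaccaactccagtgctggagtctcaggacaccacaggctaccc
Hk1 upstream: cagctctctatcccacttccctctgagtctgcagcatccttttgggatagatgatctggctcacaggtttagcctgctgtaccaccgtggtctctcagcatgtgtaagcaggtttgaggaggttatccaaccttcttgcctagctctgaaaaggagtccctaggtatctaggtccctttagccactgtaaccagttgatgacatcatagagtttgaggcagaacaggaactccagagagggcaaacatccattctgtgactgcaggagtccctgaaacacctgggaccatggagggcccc
Hk1 downstream: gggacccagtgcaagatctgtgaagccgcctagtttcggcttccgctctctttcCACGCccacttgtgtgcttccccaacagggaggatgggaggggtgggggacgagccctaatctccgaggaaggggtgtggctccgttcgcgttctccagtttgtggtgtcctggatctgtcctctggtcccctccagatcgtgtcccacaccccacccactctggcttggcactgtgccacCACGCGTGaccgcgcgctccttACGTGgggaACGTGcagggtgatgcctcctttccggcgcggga

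Phosphofructokinase, the main control point of glycolysis, has 3 subunit genes, and 2 of them rose. Pfkl, the liver type, measured 8.39, 8.31 and 8.43 in wild type samples and 9.21, 9.18 and 9.20 in deleted samples, and rose by 0.82 (adjusted p = 1.51e-05). Pfkp, the platelet type, measured 9.25, 9.28 and 9.27 and then 9.91, 9.88 and 9.89, and rose by 0.63 (adjusted p = 3.21e-05). In both genes the groups were fully apart. Pfkm, the muscle type, overlapped between groups, at 7.22, 7.24 and 7.22 in wild type and 7.21, 7.16 and 7.24 in deleted samples, and differed by -0.02 (SE 0.051, adjusted p = 0.688). Its sign depended on scaling, with 0.15 under cyclic loess (adjusted p = 0.0492) and -0.18 under median centring (adjusted p = 0.0187). A second Pfkl probe set rose by 0.68, and a second Pfkp probe set near background did not pass (0.26, adjusted p = 0.331).

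Pfkfb3 makes fructose 2,6-bisphosphate, the strongest activator of phosphofructokinase. It measured 7.03, 6.95 and 7.08 in wild type samples and 7.56, 7.63 and 7.55 in deleted samples, and rose by 0.56 (adjusted p = 0.000153). Its second probe set lay at background in both groups and was called lower (-0.45, limma, adjusted p = 0.00149). Averaging in this second probe set removed the call of Pfkfb3 (0.05, adjusted p = 0.385). Fbp1, which runs the opposing gluconeogenic reaction, lay at background throughout, from 3.91 to 4.17 in wild type and 4.84 to 4.93 in deleted samples. Its difference of 0.81 passed the test but has no readable fold.

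Both aldolases rose by like amounts. Aldoa, the aldolase of most tissues, went from 11.04, 11.03 and 11.06 to 11.90, 11.86 and 11.90, a rise of 0.85 (SE 0.049, adjusted p = 7.64e-06), and its other 3 probe sets rose by 0.76 to 0.82. Aldoc, known as the brain type, went from 6.54, 6.32 and 6.39 to 7.30, 7.17 and 7.08, a rise of 0.77 (SE 0.085, adjusted p = 0.000207). The 2 changes differed by 0.08 (SE 0.091, exact permutation p = 0.5), and the per-sample ratios of the groups overlapped.

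In the later steps of glycolysis, where each triose is turned into pyruvate, every measured step had a member that rose. Tpi1, which interconverts the triose phosphates, measured 9.10, 9.11 and 9.23 in wild type samples and 11.04, 11.13 and 11.10 in deleted samples. It rose by 1.94 (SE 0.060, adjusted p = 3.59e-07), 3.85-fold, and its other 2 probe sets rose by 1.93 and 2.03. Pgam1, the mutase that moves the phosphate, measured 8.47, 8.55 and 8.71 and then 9.91, 10.02 and 9.95. It rose by 1.39 (SE 0.077, adjusted p = 6.15e-06), 2.61-fold, with all deleted samples above all wild type ones. Pgk1 and Pkm rose by less than 2-fold on the deposited scale and by more than 2-fold under cyclic loess. Pgk1, the first ATP-yielding kinase, rose by 0.79 (adjusted p = 1.13e-05), from 11.01 to 11.06 in wild type to 11.81 to 11.83 in deleted samples. Pkm, the pyruvate kinase of most cells, rose by 0.92 (adjusted p = 1.41e-05), from 10.82 to 10.96 in wild type to 11.77 to 11.82.

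Gapdh, the dehydrogenase between these steps and a gene often used as a reference, was not constant. Its 3' control probe set measured 12.55, 12.55 and 12.58 in wild type samples and 13.39, 13.42 and 13.39 in deleted samples. The difference was 0.84 for the 3' set, 0.81 for the middle set and 0.68 for the 5' set, and the groups did not overlap in any of them. With mouse control probe sets brought into the fit, an alternative added after the annotation was seen, the rise of 0.84 had an adjusted p of 7.75e-06 over 12394 genes. The 3' signal minus the 5' signal, a measure of even RNA coverage, was 0.51, 0.20 and 0.32 for Gapdh in wild type and 0.48, 0.50 and 0.52 in deleted samples. For the beta-actin controls it was 0.47, 0.32 and 0.30 against 0.46, 0.47 and 0.52. Deleted samples thus stood at or near the upper end of the wild type values, and the part of RNA quality was not tested.

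Of the enolases, Eno3, the muscle type, measured 8.60, 8.73 and 8.83 in wild type samples and 9.42, 9.35 and 9.32 in deleted samples, and rose by 0.64 (adjusted p = 0.000237). Eno2, the neuronal type, lay at background in both groups, from 4.42 to 4.58 and from 4.21 to 4.43 (adjusted p = 0.2), which leaves no readable direction.

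**Figure D2:**
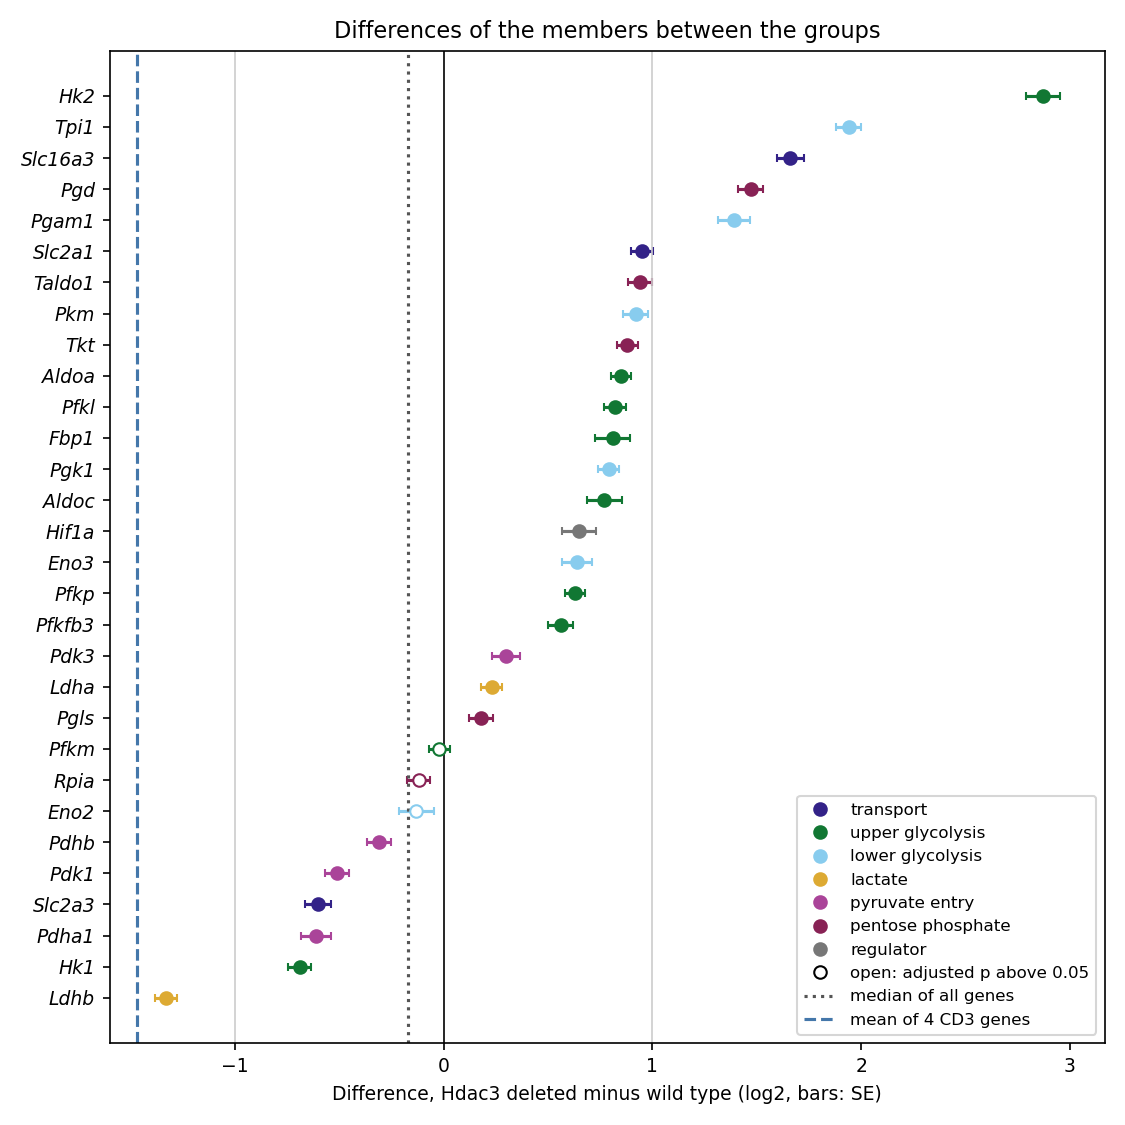
Difference between Hdac3 deleted and wild type means (log2) with its SE for the 30 members, coloured by place in the pathway, with grey lines at 2-fold, a dotted line at the median of all genes (-0.17) and a dashed line at the mean of the CD3 genes (-1.47). Hk2 (2.87) and Tpi1 (1.94) lie farthest right and Ldhb (-1.33) farthest left. No member lies beyond the CD3 mean, although Ldhb fell by more than Cd3d alone (-1.21). Fbp1 and Eno2 are at background in both groups.

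Lactate dehydrogenase is a tetramer of 2 subunit types, and their genes diverged. Ldha, the subunit of tissues that make lactate, measured 12.17, 12.11 and 12.11 in wild type samples and 12.33, 12.39 and 12.35 in deleted samples. The groups did not overlap and Ldha rose by 0.23 (SE 0.052, adjusted p = 0.00751), but under median centring the call was lost (0.07, adjusted p = 0.253). Ldhb, the subunit of tissues that use lactate, measured 9.33, 9.25 and 9.33 in wild type samples and 7.97, 7.99 and 7.96 in deleted samples. It fell by 1.33 (SE 0.053, adjusted p = 1.19e-06), 2.51-fold, and its other 3 probe sets fell by 1.11, 1.53 and 1.39. The ratio of Ldha to Ldhb shifted by 1.56 (SE 0.029), or 2.94-fold. By the chosen probe sets, none of the 6 members that fell, Ldhb included, fell by more than the mean of the CD3 genes (-1.47). The CD3 genes themselves fell by 1.21 (Cd3d) to 1.59 (Cd247), so Ldhb fell by more than Cd3d. Whether these falls are related was not tested.

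The start regions of both genes are shown for the same reason as those of hexokinase. The first Ldha window, at chr7:46845554-46845853 on the plus strand, holds 2 CACGTG, which count for 4 of its 5 ACGTG matches, and 2 GCGTG. Its second window, not printed, holds 2 GCGTG and no CACGTG. The single Ldhb window, at chr6:142507908-142508207 on the minus strand, holds 1 GCGTG and no ACGTG.
Ldha: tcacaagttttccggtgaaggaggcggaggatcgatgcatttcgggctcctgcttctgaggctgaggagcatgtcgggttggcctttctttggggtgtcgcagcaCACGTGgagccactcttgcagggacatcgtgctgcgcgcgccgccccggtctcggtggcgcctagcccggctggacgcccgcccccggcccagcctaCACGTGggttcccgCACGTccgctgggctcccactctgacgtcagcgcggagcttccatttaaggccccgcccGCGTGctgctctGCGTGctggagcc
Ldhb: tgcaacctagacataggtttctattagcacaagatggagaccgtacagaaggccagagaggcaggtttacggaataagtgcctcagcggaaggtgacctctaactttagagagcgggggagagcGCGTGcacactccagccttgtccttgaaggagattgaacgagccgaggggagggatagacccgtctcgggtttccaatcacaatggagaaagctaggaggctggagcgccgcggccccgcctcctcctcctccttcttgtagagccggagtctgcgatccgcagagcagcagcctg

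Over the promoter table as a whole, the motifs were frequent in windows of members on either side of the comparison. RefSeq windows were kept for 34 of the 35 listed genes, 48 windows in all, and Slc2a3 had none. Any member window on an excluded chromosome was dropped before this count, while the total of all windows kept that chromosome. ACGTG or GCGTG occurred in 23 of 28 windows (82.1%) of members that rose, in 5 of 7 windows (71.4%) of members that fell, and in 43.8% of all 32851 windows. CACGTG occurred in 3 of 28 (10.7%), 0 of 7 and 7.15%. Median GC content was 63.5%, 61.0% and 52.7% in the same order. Tpi1, which rose by 1.94, had no match, at chr6:124814109-124814408 on the minus strand. Matches are letters in a window and say nothing of binding.
Tpi1: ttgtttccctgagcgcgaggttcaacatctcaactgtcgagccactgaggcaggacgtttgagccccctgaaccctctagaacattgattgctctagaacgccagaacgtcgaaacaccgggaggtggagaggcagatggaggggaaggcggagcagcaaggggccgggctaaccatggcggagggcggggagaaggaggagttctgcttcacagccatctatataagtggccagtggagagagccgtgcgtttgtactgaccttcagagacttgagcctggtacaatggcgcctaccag

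Of the 4 measured members that govern the oxidation of pyruvate 3 fell and 1 rose, where 38.8% of all genes fell. Mpc1, a subunit of the carrier that brings pyruvate into mitochondria and not a member, differed by -0.03 (adjusted p = 0.673). Pdha1 and Pdhb encode the E1 subunits of pyruvate dehydrogenase. Pdha1 measured 10.46, 10.31 and 10.54 in wild type samples and 9.82, 9.86 and 9.81 in deleted samples, and fell by 0.61 (adjusted p = 0.000262), and its second probe set fell by 1.08. Pdhb measured 10.02, 9.99 and 10.09 and then 9.74, 9.66 and 9.76, and fell by 0.31 (adjusted p = 0.00296), a call lost under cyclic loess (-0.11, adjusted p = 0.187). The kinases that switch the complex off went separate ways. Pdk1 measured 9.51, 9.64 and 9.53 and then 9.06, 9.02 and 9.07, and fell by 0.51 (adjusted p = 0.000237). Pdk3 measured 8.19, 8.01 and 8.07 and then 8.39, 8.44 and 8.34, and rose by 0.30 (adjusted p = 0.00707), a call lost under median centring (0.14, adjusted p = 0.0932).

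**Figure D3:**
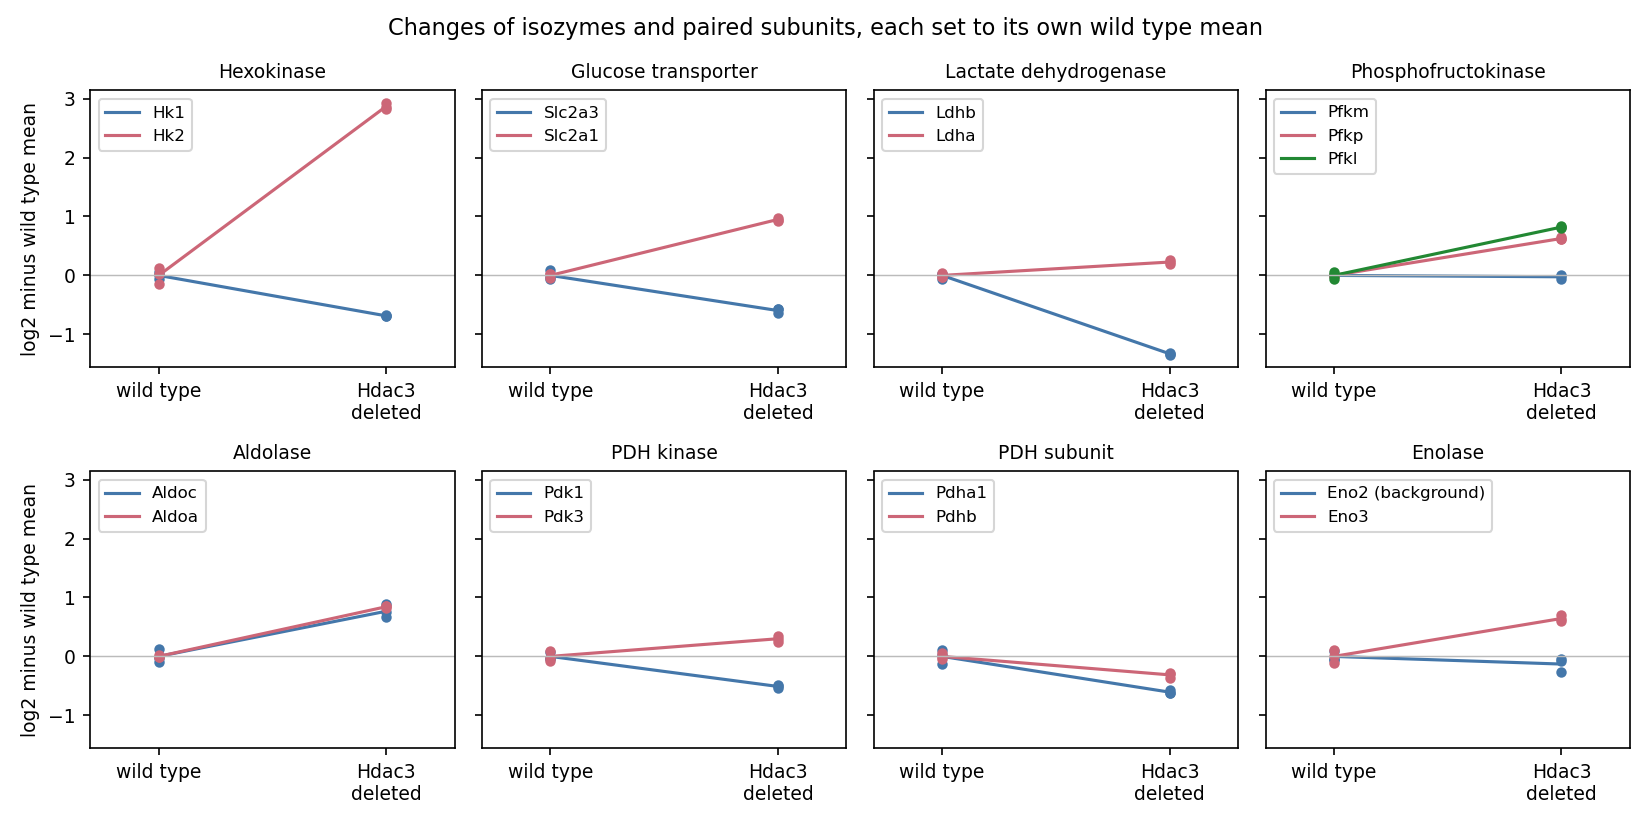
Log2 signal of isozymes and paired subunits in each sample after the wild type mean of the same probe set was subtracted; points are samples (n = 3 per group), lines join group means, and PDH stands for pyruvate dehydrogenase. Hk2 and Hk1, Slc2a1 and Slc2a3, Ldha and Ldhb, and Pdk3 and Pdk1 run apart across the zero line, although the small rises of Ldha and Pdk3 are not called under median centring; Aldoa and Aldoc run together.

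By the ratio within each array, 10 pairs of isozymes or subunits could be compared, and the groups overlapped only in Aldoa against Aldoc. The pairs made from Pfkl, Pfkm and Pfkp share genes, so the 10 are not independent comparisons. Groups did not overlap in 67.4% of all genes taken singly, and the share for pairs drawn from all genes was not determined. With 3 samples per group the smallest two-sided exact permutation p is 0.1, or 0.111 adjusted over the 10 pairs, so this test cannot reach 0.05, and sizes are given beside their SE. The 4 widest shifts were those of Hk2 against Hk1 (3.56), Ldha against Ldhb (1.56, SE 0.029), Slc2a1 against Slc2a3 (1.55, SE 0.074) and Pfkl against Pfkm (0.84, SE 0.044). Pdk1 against Pdk3 shifted by -0.80 (SE 0.099), Pfkp against Pfkm by 0.65 (SE 0.023), Pdha1 against Pdhb by -0.30 (SE 0.062) and Pfkp against Pfkl by -0.19 (SE 0.040). Eno2 against Eno3 (-0.78) rests on a background signal of Eno2.

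Of the 5 measured members of the pentose phosphate pathway 4 rose, where 22.4% of all genes rose, and Rpia did not pass. The call of Pgls, one of the 4, was lost under several alternatives. In the oxidative branch, which makes NADPH, Pgd measured 9.18, 9.18 and 9.18 in wild type samples and 10.62, 10.74 and 10.58 in deleted samples. It rose by 1.47 (SE 0.062, adjusted p = 1.58e-06), 2.76-fold, and its other 3 probe sets rose by 1.40 to 1.46. Pgls, the lactonase between G6pdx and Pgd, measured 9.20, 9.32 and 9.21 and then 9.43, 9.39 and 9.44. The groups were apart and it rose by 0.18 (adjusted p = 0.0306), but the call was lost when any 1 sample other than wild type replicate 2 was left out (0.16 to 0.19, adjusted p = 0.0506 to 0.0869), with median centring (0.02) and with quantile normalization again (0.16).

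The non-oxidative branch interconverts sugar phosphates and links back to glycolysis. Tkt, transketolase, measured 11.61, 11.59 and 11.64 in wild type samples and 12.47, 12.52 and 12.50 in deleted samples, and rose by 0.88 (SE 0.050, adjusted p = 6.92e-06), and its second probe set rose by 0.89. Taldo1, transaldolase, measured 10.21, 10.22 and 10.32 and then 11.17, 11.24 and 11.17, and rose by 0.94 (SE 0.057, adjusted p = 9.45e-06). Both rises were close to 2-fold, at 1.84-fold and 1.92-fold. Rpia, the isomerase that yields ribose 5-phosphate, measured 9.36, 9.42 and 9.46 and then 9.30, 9.33 and 9.26. It differed by -0.12 (SE 0.055, adjusted p = 0.1), and by 0.08 under cyclic loess and -0.28 under median centring (adjusted p = 0.00272).

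Hif1a encodes the oxygen-regulated subunit of a transcription factor known to induce most glycolytic genes. It measured 11.01, 11.29 and 11.23 in wild type samples and 11.81, 11.87 and 11.79 in deleted samples, and rose by 0.65 (SE 0.082, adjusted p = 0.000397). Of its other probe sets, one rose by 0.61, one at background in both groups also passed, and one did not pass (0.26, adjusted p = 0.0667). The last stands for the gene when _s, _x and _a sets are left out, and the call is then lost (adjusted p = 0.0649). Of 17 other measured genes of the hypoxia response 6 rose (35.3%) and 7 fell (41.2%), with a median of -0.20, beside 22.4%, 38.8% and -0.17 over all genes. The mitophagy receptor Bnip3 rose by 1.12 (adjusted p = 7.45e-06), and the carbonic anhydrase gene Car9 was at least 2.35-fold higher, coming from background in wild type. Egln1, the main oxygen sensor that marks HIF for degradation, fell by 0.72, while Egln3, of the same family, rose by 0.43. Vegfa, a widely used HIF target, lay at background in both groups, as did Adm, which is counted among the falls.

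Genes of neighbouring steps that are not members were also counted. Of 76 measured genes in 6 lists, which include the hypoxia genes, 24 rose (31.6%) and 21 fell (27.6%), with a median of -0.06. Among the falls, Pgam2, Pck1, Slc2a2 and Adm lay at background in both groups, while none of the rises did. The 76 also include uncalled genes at background in both groups. The split between rises and falls moved with the scaling, to 20 and 33 under median centring and 33 and 12 under cyclic loess. For the members it was 18 and 9 and 22 and 5 under the same scalings, and for all genes 36.6% of calls were rises on the deposited scale, 23.3% under median centring and 56.1% under cyclic loess.

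Of 13 other genes of glucose and monocarboxylate transport, which include regulators, 6 rose and 2 fell, beside 22.4% and 38.8% of all genes. The falls were the transporter gene Slc2a2, at background in both groups, and Txnip. Slc37a2, a sugar phosphate exchanger known from macrophages, measured 5.87, 5.38 and 5.33 in wild type samples and 7.83, 7.74 and 7.85 in deleted samples, and rose by 2.28 (adjusted p = 1.13e-05). Slc16a7, which encodes the lactate and pyruvate carrier MCT2, came up from background and was at least 1.77-fold higher. Slc16a1, which encodes the related carrier MCT1, rose by 0.79 (adjusted p = 9.47e-05). Txnip, an inhibitor of glucose uptake and no carrier itself, fell by 0.45 (adjusted p = 0.000387). Summed macrophage marker signals in the same samples were 7510 to 7840 and 130000 to 134000.

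Among glycogen and hexose genes, 6 of 14 rose and 2 fell, beside 22.4% and 38.8% of all genes. Pygl, the liver-type glycogen phosphorylase, was at background in wild type (3.22, 3.29 and 3.69) and reached 9.42, 9.31 and 9.34 in deleted samples, at least 18.4-fold higher (adjusted p = 5.80e-08). Khk, which phosphorylates fructose, rose by 1.58 (adjusted p = 3.78e-06). Pygb, the brain-type phosphorylase, fell by 0.41 (adjusted p = 0.000602), so the 2 named phosphorylases moved in opposite directions.

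Of 7 other pentose phosphate genes 4 fell and 1 rose, where 38.8% of all genes fell and 22.4% rose. H6pd, which runs the oxidative branch in the endoplasmic reticulum, rose by 1.27 (adjusted p = 2.17e-06). Prps2 and Prps1, which activate ribose for nucleotide synthesis, fell by 1.16 and 0.66. Rpe, the epimerase of the non-oxidative branch, fell by 0.65. Tktl1, a relative of transketolase, measured 5.64, 6.16 and 5.94 in wild type. The deleted samples lay at background, which makes it lower by at least 1.69-fold (adjusted p = 6.07e-06), while Tkt rose.

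Of 20 other genes of glycolysis and gluconeogenesis 4 rose and 5 fell, beside 22.4% and 38.8% of all genes, with Pgam2 and Pck1 among the falls at background in both groups. Galm, which interconverts the anomers of glucose and galactose, fell by 1.22 (adjusted p = 7.57e-05), and Pck2, the mitochondrial carboxykinase, fell by 0.89. Adpgk, an ADP-dependent glucokinase, rose by 0.69, and Gpd2, the mitochondrial glycerol phosphate dehydrogenase, rose by 0.89. Of 5 other genes of the pyruvate dehydrogenase complex 1 rose (Dlat, by 0.32), 1 fell (Pdk2, by 0.43) and 3 did not pass.

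**Figure D4:**
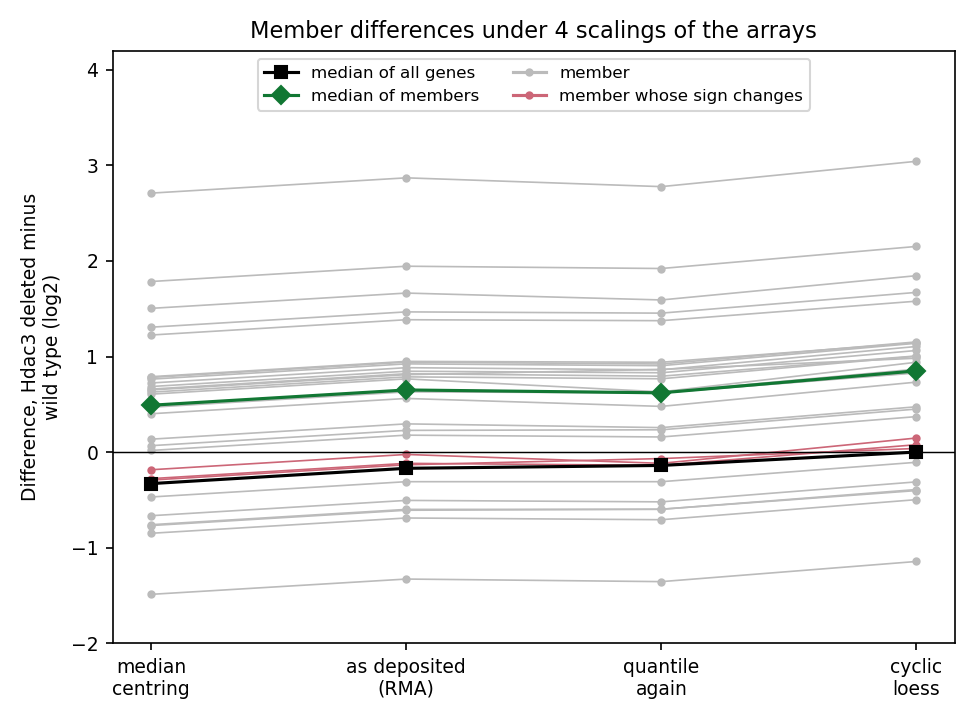
Difference between Hdac3 deleted and wild type (log2) of each of the 30 members under 4 scalings of the arrays, with diamonds for the members' median and squares for the median of all genes. The members' median is 0.49 to 0.85 and that of all genes -0.33 to 0.00, and Pfkm, Rpia and Eno2 change sign under cyclic loess.

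Scaling moved members together with the rest of the array. The median of all genes was -0.33 under median centring, -0.17 as deposited and 0.00 under cyclic loess, and that of the members was 0.49, 0.65 and 0.85. Under each of these the 6 falls stayed falls in sign, and the called rises stayed rises in sign. Of 30 other probe sets of 17 members, 24 were above background in at least 1 group. The 22 of these 24 that were called, for genes also called, all had the direction of the chosen probe set. Among those at background in both groups, the called sets of Aldoc, Pdhb and Hif1a kept the direction. That of Pfkfb3 was called in the opposite direction.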

How the data were processed

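RNA of 6 samples was measured on Affymetrix Mouse430a arrays, 1 per sample. The authors used RMA in MAYDAY 2.12, per the labels, and the deposited values are on a log2 scale, as their range shows. RMA gives arrays a common distribution of probe signals, so a change in total RNA per cell cannot be seen. The medians over probe sets still differed, at 6.28 to 6.29 in wild type and 6.43 to 6.47 in deleted samples. The probe set definition used is not given in the sources used here. The number of arrays limits the precision.

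Of 22690 probe sets, 64 controls were left out. Of the other 22626, 20380 had 1 gene symbol, 691 several and 1555 none, and 20351 matched RefSeq by Entrez identifier. Probe sets ending in _s, _x or _a can match several transcripts, and 15 of the 30 members rest on one. Sample titles gave the groups. A linear model was fitted to all 12393 genes with limma 3.58.1 (lmFit, eBayes; R 4.3.3), and p-values were adjusted by Benjamini-Hochberg over all of them, in place of the authors' test. The fit was tested on simulated data. Isozyme ratios were tested by exact permutation over all 20 assignments. Plots used Python 3.11.15 and matplotlib 3.10.9.

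Members and lists were chosen with earlier results of these data known. All measured members are named, and from 6 lists of neighbouring genes up to 4 per list past adjusted p 0.05 and 2-fold. Other neighbouring genes named (Slc16a1, Slc2a2, Txnip, Pygb, Adm, Pgam2, Pck1, Prps1, Rpe, Pck2, Adpgk, Gpd2, Dlat, Pdk2, Egln1, Egln3, Mpc1 and Vegfa) were chosen after their values were seen. Alternatives were 3 scalings, the methods' t-test, a replicate block, a trended robust prior, array weights, no dim probe sets, other choices of probe set and leaving out each sample.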

Additional observations from a re-analysis of the deposited data

How the results depend on the processing

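Over 17 alternatives, 476 of 498 member differences kept their sign and their side of adjusted p 0.05, 14 lost the call, 5 gained one and 3 changed sign. The sign changes were all under cyclic loess, in Pfkm (0.15), Eno2 (0.04) and Rpia (0.08). The counts of 21 rises and 6 falls were 20 and 6 with the replicate block, which changed no call but that of Pgls (0.18, adjusted p = 0.076), and 21 and 6 with the methods' t-test. Deviations of same-numbered samples from their group means were weakly correlated (r over genes = 0.0885, 0.0646 and -0.201). Not every sample correlated best with its own number. Deviations from a mean of 3 samples are tied to each other, so this check cannot decide whether the numbers pair the samples. The main fit did not pair them.

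Leaving out _s, _x and _a probe sets left 20 members, of which 13 rose and 3 fell, 2 of them higher and 0 lower by 2-fold (limma; also 0 at unadjusted p under 0.05), since Ldhb has no plain probe set. Cyclic loess gave 12 rises of 2-fold in place of 5. Other pathway genes that fell were 33 with median centring and 12 with cyclic loess, in place of 21. The median member difference of 0.65 was 0.49 with median centring, 0.85 with cyclic loess, 0.50 with the mean of probe sets, 0.43 without _s, _x and _a sets, and 0.60 to 0.69 with each sample left out.

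With the mean of probe sets the isozyme shifts were 3.71 for Hk2 against Hk1, 1.32 for Slc2a1 against Slc2a3, -0.30 for Pfkp against Pfkl, 0.47 for Pfkp against Pfkm, 0.78 for Pfkl against Pfkm, 0.28 for Aldoa against Aldoc and -0.41 for Pdha1 against Pdhb. Quantile normalization again gave 0.74, 0.91 and 0.20 for Pfkp against Pfkm, Pfkl against Pfkm and Aldoa against Aldoc. Slc2a1 against Slc2a3 was 1.03 without _s, _x and _a sets, where Slc2a3 rests on a probe set at background in both groups. The means of probe sets for Slc2a3, Aldoc and Pdhb also take in sets at background in both groups. Ldha against Ldhb was 1.59 with cyclic loess. The cause of these moves was not tested. Signals at or below 5.16 cannot be told from background, which limits Fbp1 and Eno2.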
